A study of Mus musculus with 6 samples.

Results

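The metalloproteinases examined here are the enzymes that cut the extracellular matrix and shed proteins from the cell surface, together with their tissue inhibitors. Members were chosen by gene symbol: 49 of the 13706 genes in the table matched, comprising 14 matrix metalloproteinases (MMPs), 12 ADAMs, 14 ADAMTS genes, 5 ADAMTS-like genes and 4 TIMPs. All 49 members passed the filter on low values and were tested. The GENCODE annotation holds 83 protein-coding genes with such symbols, and the other 34, among them Mmp9, Mmp10 and Adamts3, were not analysed here. RNA of primary mouse dermal fibroblasts was sequenced from the 3' ends of polyadenylated transcripts (QuantSeq) in 6 libraries, 2 per group. Control cells were Yap1 fl/fl; Wwtr1 fl/fl, without Cre. Knockout (KO) cells had both these floxed alleles and also carried R26-CAG-CreER, a tamoxifen-inducible Cre under the broadly active CAG promoter at the ROSA26 locus, which can delete the floxed genes that encode YAP and TAZ. KO + H-151 cells had the KO genotype and also received 1 µM H-151, an inhibitor of the DNA-sensing adaptor STING. All 3 groups received 1 µM 4-hydroxytamoxifen for 72 hr. No label gives the age of the mice, a vehicle for H-151, or the origin of the 2 libraries of a group (separate animals, separate cultures or 1 culture). The p-values below therefore rest on the spread within these pairs, which may be technical.

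MMPs are zinc-dependent endopeptidases made as inactive proenzymes: collagenases cut fibrillar collagen, gelatinases the unwound chains, stromelysins a wide range of matrix proteins, and membrane-type MMPs act at the cell surface. ADAMs are membrane proteins, several of which release the outer parts of growth factors, receptors and adhesion molecules. ADAMTS proteases are secreted and process procollagens and large proteoglycans, ADAMTS-like proteins resemble them but lack the protease domain, and TIMPs block the active sites of these families to differing degrees. Dermal fibroblasts make many of these proteins and renew the skin's collagen with them.

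Several MMP promoters are known to be driven through AP-1, the Fos and Jun transcription factors, with which YAP and TAZ can act. RefSeq promoter windows (GRCm38.p6, the same build as the mm10 of the deposited table) were matched to 32 members by symbol. In the 250 bases before the start, the AP-1 letters TGAGTCA or TGACTCA (each the other's reverse complement, so both strands are covered) stood in 4 of 36 member windows, of 4 genes, and in 4.46% of all 32851 windows. The 150 bases before these 4 starts are shown because 3 of the genes lie in 1 cluster of MMP genes on chromosome 9 and moved in different directions below. They lie at chr9:7272364-7272513 for Mmp13, chr9:7445672-7445821 for Mmp3, chr9:7347224-7347373 for Mmp12 (the second of its 2 windows) and chr11:46055834-46055983 for Adam19 (the second of its 3 windows), all on the plus strand. They are written 5′ to 3′, with the AP-1 letters in capitals and the last base next to the start.
Mmp13: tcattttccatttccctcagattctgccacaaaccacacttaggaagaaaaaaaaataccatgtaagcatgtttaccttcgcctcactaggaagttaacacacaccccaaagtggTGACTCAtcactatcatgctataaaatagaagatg
Mmp3: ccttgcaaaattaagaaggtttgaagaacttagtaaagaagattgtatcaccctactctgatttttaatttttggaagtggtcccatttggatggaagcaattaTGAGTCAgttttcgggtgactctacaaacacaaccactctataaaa
Mmp12: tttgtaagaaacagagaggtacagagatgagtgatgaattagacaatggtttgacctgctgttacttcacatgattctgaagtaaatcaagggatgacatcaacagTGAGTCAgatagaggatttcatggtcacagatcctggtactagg
Adam19: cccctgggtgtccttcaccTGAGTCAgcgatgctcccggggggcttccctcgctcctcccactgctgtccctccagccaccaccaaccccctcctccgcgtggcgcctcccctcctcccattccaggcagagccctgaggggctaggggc
The AP-1 letters began 35 bases before the start in Mmp13, 46 in Mmp3, 44 in Mmp12 and 131 in Adam19. The letters GGAATG or CATTCC, the core bound by the TEAD partners of YAP and TAZ, stood in 2 of the 36 windows (Adam19 and Timp1) and in 12.6% of all windows. The core letters of the interferon-stimulated response element, searched on both strands, stood in 1 (Mmp13) and in 2.98% of all windows. These matches are descriptions of letters and were not tested as binding sites.

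Levels are given as scaled CPM (reads after the authors' library scaling), and changes are differences of log2(scaled CPM + 1), ± SE, which understate the change of low genes. Between 12444986 and 15308100 reads per library fell in the genes of the table, and members took 0.917% to 1.05% of them. Wwtr1, which encodes TAZ, stood at 213 and 218 in control, 4.79 and 5.03 in KO, and 3.07 and 4.002 in KO + H-151. Yap1 stood at 122 and 128 in control, 66.4 and 68.3 in KO, and 45.3 and 42.4 in KO + H-151. For either gene all 4 KO and KO + H-151 libraries lay below both controls. Both genes were also lower in KO + H-151 than in KO in limma. Yap1 changed there by -0.61 ± 0.08 (adjusted p = 8.35e-06) and Wwtr1 by -0.39 ± 0.13 (adjusted p = 0.0258). The part of this difference in the changes with H-151 below was not tested. Which exons are floxed is not stated in the labels, and 3' reads that fall outside a deleted part check nothing. Fibroblast markers were high throughout, with a summed level over 10 genes of 35947 to 36485 in control, 40379.9 to 42290.1 in KO and 27187 to 28813 in KO + H-151. In KO 3 of the 10 rose and 2 fell (median 0.09). With H-151 5 rose (Pdgfra, Dcn, Lum, Thy1, S100a4) and 5 fell (Col1a1, Col1a2, Col3a1, Vim, Fn1), with a median of -0.03. Of 9 keratinocyte markers, 1 (Krt10) was in the table. The summed level of 8 melanocyte and Schwann cell markers was 52.9 to 62.2 in control, 148 to 166 in KO and 44.4 to 52.1 in KO + H-151. For 6 endothelial markers the sum was 17.9 to 19.5, 12.01 to 13.2 and 18.5 to 21.4 in the same order of groups, for 5 smooth muscle and pericyte markers 82.8 to 90.2, 106 to 108 and 67.0 to 76.2, and for 4 chondrocyte markers 378 to 388.5, 241 to 261 and 279 to 303. Of the endothelial markers 1 rose and 4 fell in KO (median -0.93) and 3 rose with H-151 (median 0.57). The part of these lists in the results below was not tested. The presence of Cre and the loss of YAP and TAZ came together in these groups and cannot be told apart.

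In KO against control, the fibroblast cultures carried more RNA for the collagenase Mmp13, the membrane-anchored Mmp17 and Mmp14 and the stromelysin Mmp3. They carried less for the proteoglycan-cleaving Adamts5 and Adamts1, the collagenase Mmp8, Adam19 and the inhibitor Timp3. In limma, with p-values adjusted over all 13648 genes tested (Benjamini-Hochberg, threshold 0.05), 14 members rose, 10 fell and 25 did not pass. That is 48.98% of members called, against 32.4% of all genes, of which 18.2% rose and 14.2% fell. The 2 libraries of KO lay above both of control in 21 members and below in 16, beside 33.4% and 33.5% of all genes. By family, 6 of 14 MMPs, 3 of 12 ADAMs, 3 of 14 ADAMTS genes and 2 of 5 ADAMTS-like genes rose, and 2 MMPs, 3 ADAMs, 4 ADAMTS genes and 1 of 4 TIMPs fell. The median absolute change was 0.37 in members and 0.22 in all genes. A change of at least 2-fold was reached by 2 members that rose (Mmp13, Mmp17) and 3 that fell (Adamts5, Adamts1, Mmp8), beside 5.71% and 1.52% of all genes. Quantile normalization in place of the deposited scaling gave 8 members higher and 12 lower, and total-count scaling gave 8 and 13; the latter moved the median change of all genes from -0.01 to -0.16. No called member changed direction under any alternative run. Of the 24 called members, 9 lost the call under at least 1 alternative. The count of members that rose was 7 without control replicate 2 and 7 without KO replicate 2, 9 without a trend in the prior variance, and the 9 calls concerned are given by family below.

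In KO + H-151 against KO, the collagenase Mmp13, the membrane-anchored Mmp17, the disintegrin Adam9, Adamts6 and the inhibitors Timp1 and Timp3 fell. Adamts15, the macrophage-associated Adam8 and Mmp12, the stromelysin Mmp11 and the low-level inhibitor Timp4 rose. Of 49 members 16 rose, 16 fell and 17 did not pass, so that 65.3% were called, against 40.8% of all genes, of which 19.4% rose and 21.4% fell. The libraries did not overlap in 20 higher and 18 lower members, beside 35.5% and 33.7% of all genes. By family, 4 MMPs, 5 ADAMs, 6 ADAMTS genes and 1 TIMP rose, and 5 MMPs, 2 ADAMs, 5 ADAMTS genes, 2 ADAMTS-like genes and 2 TIMPs fell. The median absolute change was 0.51 in members and 0.26 in all genes. At least 2-fold changes were counted for 5 members that rose (Adamts15, Adam8, Mmp12, Timp4, Adam23) and 5 that fell (Mmp17, Adamts6, Adamtsl1, Mmp13, Adamts14), against 3.14% and 6.35% of all genes. Quantile normalization gave 18 higher and 12 lower, and total-count scaling 21 and 12. This comparison shares the KO libraries with the one above, so the changes of 1 gene in both are not independent.

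In KO + H-151 against control, which asks how far the treated cells stood from cells with YAP and TAZ, 11 members were higher and 11 lower, so that 44.9% were called, against 22.9% of all genes (11.5% higher and 11.4% lower). The libraries did not overlap in 22 higher and 15 lower members, beside 29.5% and 29.5% of all genes. The 5 members at least 2-fold higher were Adamts15, Timp4, Adam8, Mmp11 and Adam33, and the 2 at least 2-fold lower were Timp3 and Adamts5, with 1.85% and 1.23% of all genes past these marks.

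**Figure D1:**
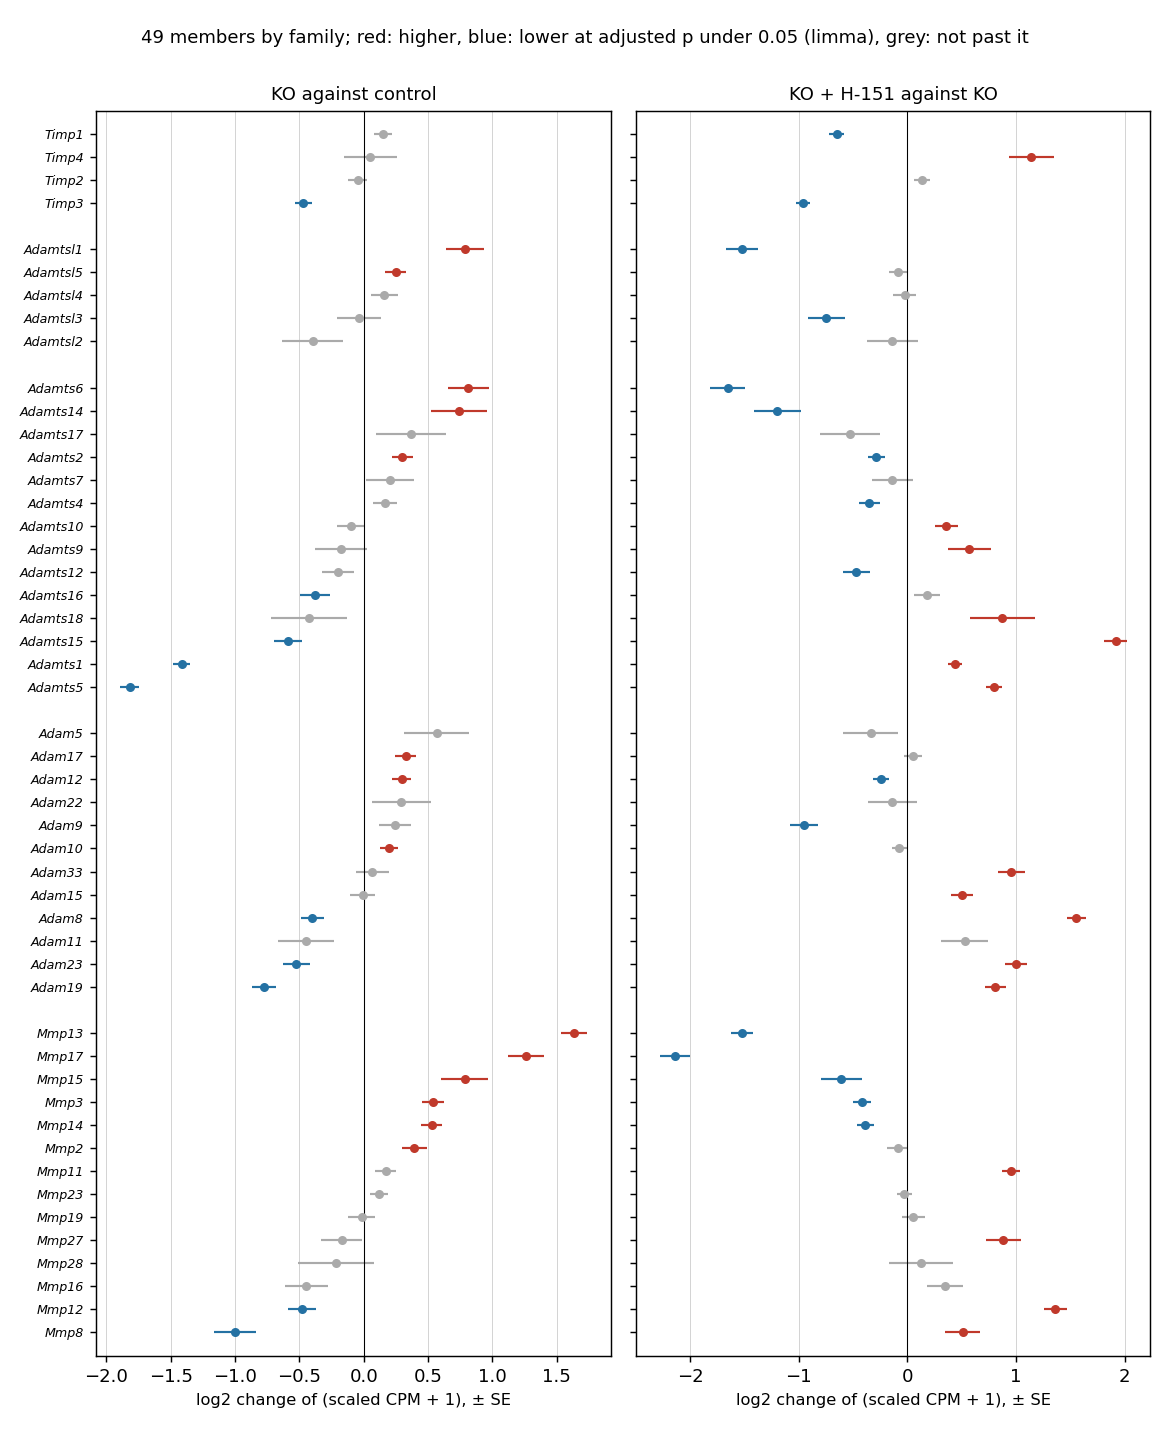
Log2 change of (scaled CPM + 1) with its SE for the 49 members, grouped by family (vertical axis), in KO against control (left) and KO + H-151 against KO (right), which share the KO libraries. Red points are higher and blue points lower at the adjusted p threshold of 0.05 in limma, and grey points are not past it. In KO the widest changes were those of Mmp13 (1.63) and Adamts5 (-1.82), and with H-151 those of Adamts15 (1.92) and Mmp17 (-2.14).

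Of the collagenases, Mmp13, which opens the triple helix of fibrillar collagens, stood at 50.9 and 48.9 in control, 138 and 179 in KO, and 56.97 and 51.3 in KO + H-151. Both KO libraries lay far above the other 4, which were close together. The change was 1.63 ± 0.10 in KO (adjusted p = 1.86e-09), -1.52 ± 0.10 with H-151 (adjusted p = 4.16e-09) and 0.11 ± 0.10 in KO + H-151 against control (adjusted p = 0.479). Mmp8, known as the neutrophil collagenase, moved the other way. It stood at 15.7 and 13.5 in control, 5.75 and 7.92 in KO, and 10.4 and 9.69 in KO + H-151, from 66 reads in KO replicate 1 to 220 in control replicate 1. The 3 groups did not overlap, with control highest and KO lowest. Mmp8 changed by -1.002 ± 0.16 in KO (adjusted p = 1.64e-04), rose by 0.51 ± 0.16 with H-151† and stayed below control in KO + H-151 (-0.49 ± 0.16)†. The sign † marks calls lost when 1 library was left out. For Mmp8 with H-151 the adjusted p was 0.229 without KO replicate 1 and 0.0757 without KO + H-151 replicate 1. For KO + H-151 against control, leaving out control replicate 1 gave 0.248, control replicate 2 gave 0.0781, KO + H-151 replicate 1 gave 0.0629 and KO + H-151 replicate 2 gave 0.124.

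Of the stromelysins, Mmp3, which cuts proteoglycans and fibronectin and can activate procollagenases, stood at 287 and 267 in control, 387 and 418 in KO, and 333 and 272 in KO + H-151. Both KO libraries were above the other 4, while control and KO + H-151 overlapped. Mmp3 rose by 0.54 ± 0.08 in KO (adjusted p = 1.06e-04) and changed by -0.42 ± 0.08 with H-151 (adjusted p = 8.30e-04), a call that quantile normalization ended (adjusted p = 0.167). It did not pass in KO + H-151 against control (0.12 ± 0.08) except without KO + H-151 replicate 2 (0.26, adjusted p = 0.0125). Mmp11, which is activated inside the secretory pathway by furin, stood at 238 and 226 in control, 241 and 283 in KO, and 542 and 471 in KO + H-151. Its KO + H-151 libraries were above all others, and KO was not distinguished from control (0.17 ± 0.08, adjusted p = 0.133). With H-151 it rose by 0.95 ± 0.08 against KO (adjusted p = 1.10e-07) and was 1.12 ± 0.08 above control. Exons of Mmp11 overlap those of Chchd10 on the opposite strand over 155 bases. The strand setting of the counting is not given in the sources used here, so reads in such shared bases cannot be told apart. The same holds for Adam17 with Iah1, Adam8 with Gm16201, Adamts7 with Tbc1d2b and Mmp19 with Tmem198b.

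Mmp2, the gelatinase that also cuts basement membrane collagen, stood at 566 and 529 in control, 674 and 768 in KO, and 765 and 599 in KO + H-151. The KO libraries lay above control, and of the KO + H-151 libraries 1 lay within the range of KO and 1 between KO and control. Mmp2 rose by 0.39 ± 0.10† in KO (adjusted p = 0.00458), with the call lost without control replicate 2 (0.35) or KO replicate 2 (0.30). The rise in KO also lost its call under quantile normalization (0.18, adjusted p = 0.164) and total-count scaling (0.23, adjusted p = 0.068). Without a trend its adjusted p was 0.0901. Mmp2 was 0.31 ± 0.10† above control in KO + H-151 (adjusted p = 0.0293). The call was lost when any 1 library other than KO + H-151 replicate 2 was left out (changes of 0.13 to 0.35). It was also lost under median scaling (adjusted p = 0.0503), with only the 2 groups compared (0.0685) and without a trend (0.204). The H-151 difference was -0.09 ± 0.10 (adjusted p = 0.498), with its sign reversed under quantile normalization and total-count scaling. Without KO + H-151 replicate 1 it was called lower (-0.26, adjusted p = 0.0102). Mmp12, the elastase of macrophages, stood at 42.1 and 53.98 in control, 36.3 and 31.7 in KO, and 89.3 and 88.1 in KO + H-151. Its 3 groups did not overlap, with KO lowest and KO + H-151 highest. The change was -0.48 ± 0.11† in KO (adjusted p = 0.00249; 0.0699 without control replicate 2 and 0.0722 without KO replicate 2) and 1.36 ± 0.11 with H-151 (adjusted p = 3.05e-08). Mmp27, a little-studied secreted MMP, stood at 6.69 and 6.85 in control, 5.31 and 6.56 in KO, and 11.7 and 11.8 in KO + H-151. The treated libraries were highest, and KO lay just below control without passing (-0.17 ± 0.16). With H-151 Mmp27 rose by 0.88 ± 0.16. Mmp19 and Mmp28, the other secreted members, passed in none of the 3 comparisons.

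Among the membrane-bound MMPs, Mmp14, the main activator of proMMP2 and a pericellular collagenase, stood at 1431 and 1235 in control, 1883 and 1949.9 in KO, and 1501 and 1431 in KO + H-151. Both KO libraries exceeded the other 4, and control and KO + H-151 lay at similar heights. It rose by 0.53 ± 0.08 in KO (adjusted p = 5.73e-05) and changed by -0.39 ± 0.08 with H-151 (adjusted p = 8.35e-04), a call that quantile normalization ended (adjusted p = 0.119). KO + H-151 against control did not pass (0.14 ± 0.08) except under quantile normalization (0.22, adjusted p = 0.0413). Mmp17, which is held at the surface by a glycolipid anchor, stood at 14.2 and 11.7 in control, 30.2 and 34.7 in KO, and 6.27 and 6.94 in KO + H-151. Its groups did not overlap, with KO highest and KO + H-151 lowest. Mmp17 rose by 1.26 ± 0.14 in KO (adjusted p = 2.50e-06), changed by -2.14 ± 0.14 with H-151 (adjusted p = 3.16e-09), and was -0.88 ± 0.14 from control in the treated cells. Mmp15, a transmembrane relative of Mmp14, stood at 2.49 and 2.88 in control, 5.398 and 5.28 in KO, and 3.397 and 2.94 in KO + H-151, with 35 to 62 reads per library. KO was highest. It rose by 0.78 ± 0.19 in KO and changed by -0.61 ± 0.19 with H-151†, where the adjusted p was 0.0735 and 0.0623 without KO replicates 1 and 2 and 0.091 without KO + H-151 replicate 2. Mmp16 (-0.45 ± 0.17 in KO, adjusted p = 0.0532) and Mmp23 (0.12 ± 0.07) did not pass in any comparison.

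**Figure D2:**
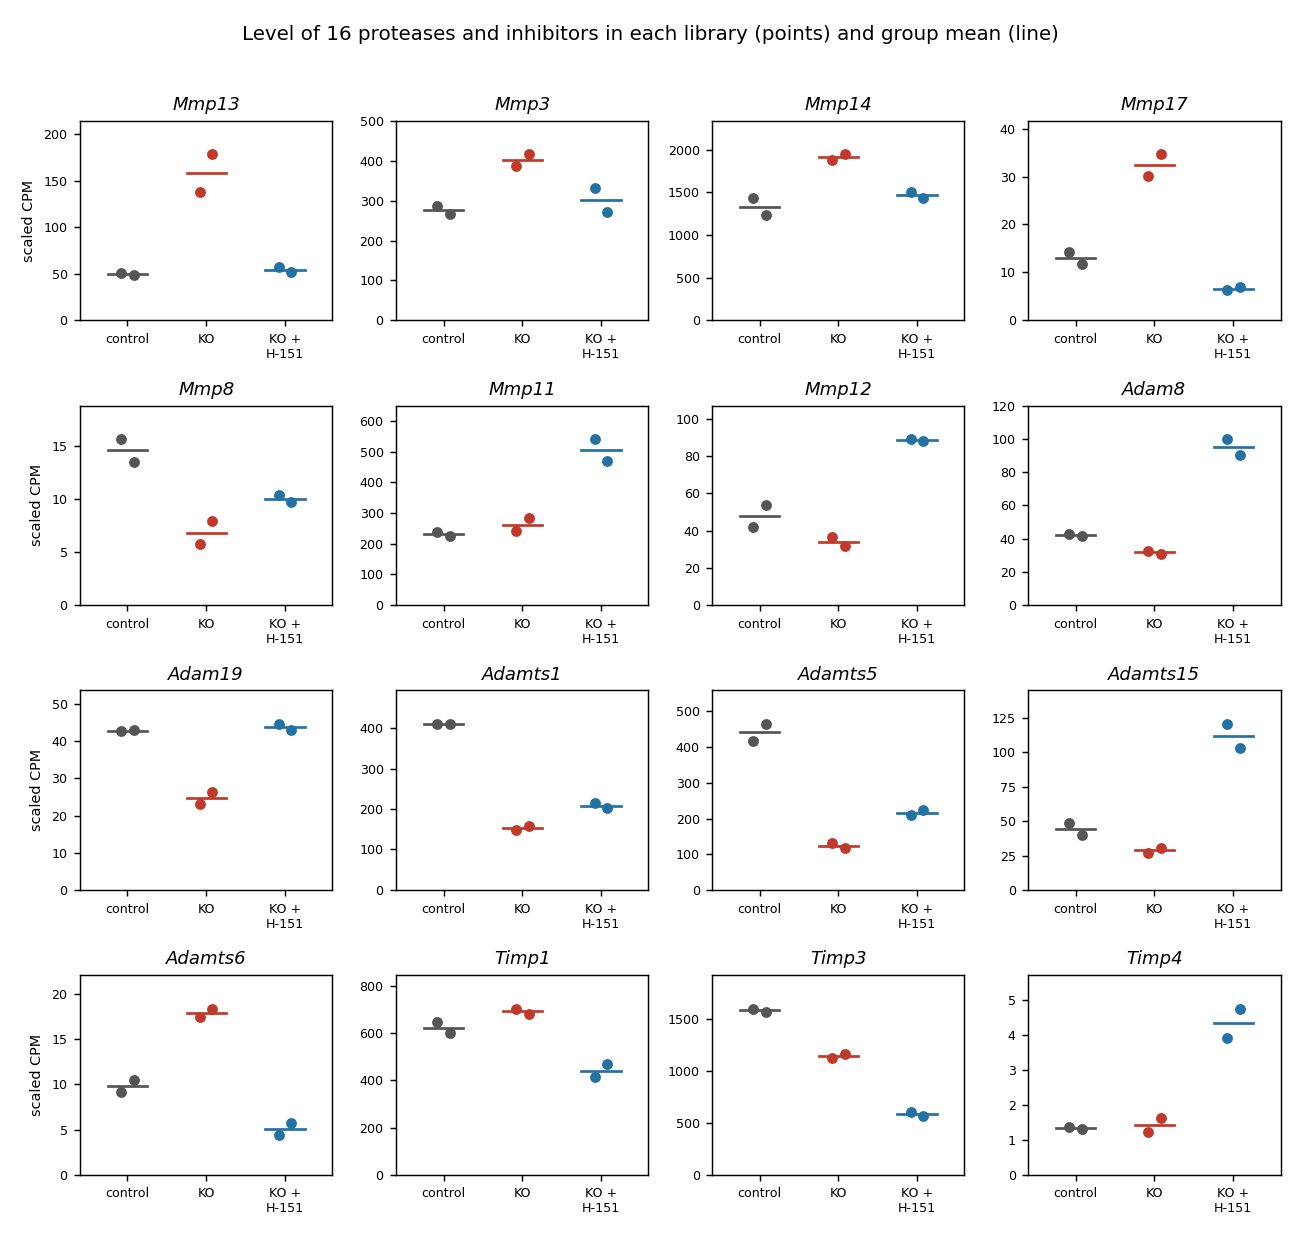
Scaled CPM (vertical axes, each from 0) of 16 members in control, KO and KO + H-151 libraries (horizontal axes), with 1 point per library and a line at the mean of the 2. Mmp13 was at 50.9 and 48.9 in control, 138 and 179 in KO and 57.0 and 51.3 in KO + H-151, whereas Adamts1 and Adamts5 were highest in control and Timp3 was lowest in KO + H-151.

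Of the MMP genes above, 5 lie within 1 Mb of Yap1 on chromosome 9, the gene whose floxed allele all 3 groups carry. Mmp27 is 350.1 kb from Yap1, Mmp8 363.5 kb, Mmp3 476.0 kb, Mmp12 562.5 kb and Mmp13 648.7 kb. In KO the changes ran in that order -0.17, -1.002, 0.54, -0.48 and 1.63, of which the change of Mmp27 did not pass. With H-151 they were 0.88, 0.51, -0.42, 1.36 and -1.52. In both of these comparisons the closest pair, Mmp27 and Mmp8 (2.9 kb apart), had the same sign. Mmp12 there had the opposite sign to Mmp3 on one side and Mmp13 on the other. In KO + H-151 against control, however, Mmp27 was higher (0.71 ± 0.16) and Mmp8 lower (-0.49 ± 0.16)†. The other neighbouring pair with 2 called genes, Adamts1 and Adamts5, is separated by 53.1 kb on chromosome 16 and is described below.

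**Figure D3:**
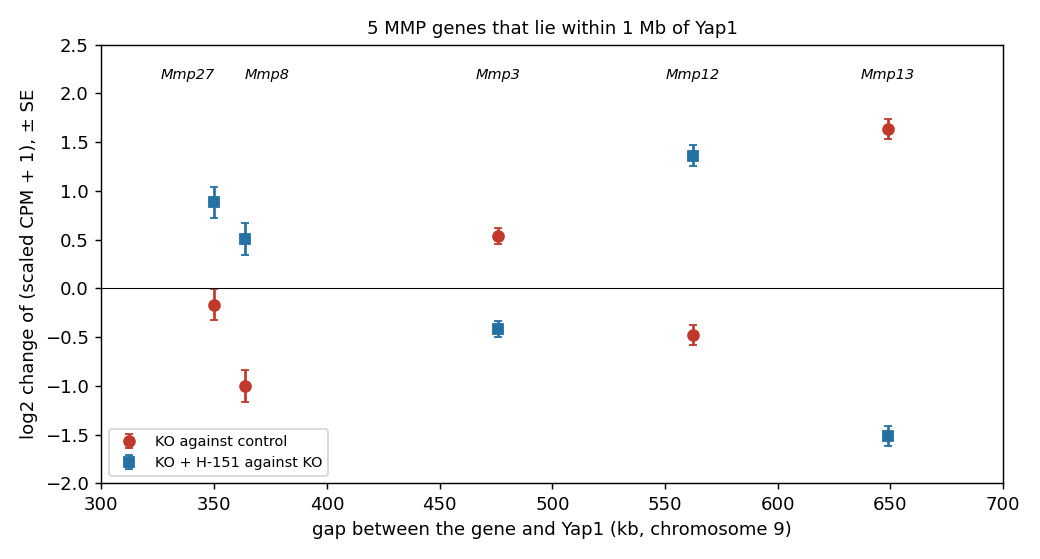
Log2 change of (scaled CPM + 1), ± SE, of the 5 MMP genes within 1 Mb of Yap1 (vertical axis) against the gap between each gene and Yap1 in kb (horizontal axis). Red circles are KO against control and blue squares KO + H-151 against KO. Mmp3 and Mmp13 lay above 0 in KO and below it with H-151, and Mmp8, Mmp12 and Mmp27 the reverse.

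Of the ADAMs known as general sheddases, Adam10, which cuts Notch, stood at 109.7 and 115 in control, 129 and 129 in KO, and 124 and 121 in KO + H-151. Adam17, which releases tumour necrosis factor and ligands of the epidermal growth factor receptor, stood at 91.6 and 83.02 in control, 102 and 118 in KO, and 113 and 115 in KO + H-151. For both genes the KO libraries exceeded the control libraries by a small margin. Adam10 rose by 0.20 ± 0.07† in KO (adjusted p = 0.0342) and Adam17 by 0.33 ± 0.08† (adjusted p = 0.00524). With H-151 neither was distinguished from KO (-0.07 ± 0.07 and 0.05 ± 0.08), and the sign for Adam10 reversed under quantile normalization and total-count scaling. Under these scalings Adam17 was called higher with H-151 (0.24 and 0.23, adjusted p = 0.0303 and 0.0319). Adam17 was 0.38 ± 0.08† above control in KO + H-151. Adam12, a meltrin of muscle and mesenchyme, stood at 77.6 and 74.8 in control, 92.5 and 95.04 in KO, and 79.5 and 78.4 in KO + H-151. It rose by 0.30 ± 0.07† in KO and changed by -0.25 ± 0.07† with H-151.

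The rises of Adam10, Adam12 and Adam17 in KO were small and depended on the scaling. Adjusted p under quantile normalization and total-count scaling was 0.625 and 0.701 for Adam10, 0.153 and 0.152 for Adam12, and 0.138 and 0.117 for Adam17. Without control replicate 2 it was 0.0737, 0.052 and 0.0815 for the 3 genes in that order, and without KO replicate 2 it was 0.132, 0.0573 and 0.123. Adam10 also lost the call without control replicate 1 (0.195) and KO replicate 1 (0.147). For Adam12 with H-151 the adjusted p was 0.297 and 0.447 under these scalings, and 0.0526 and 0.0914 without KO replicates 1 and 2. Adam17 against control in KO + H-151 had an adjusted p of 0.0551 without control replicate 2.

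Adam19, the meltrin that processes neuregulin, stood at 42.7 and 42.9 in control, 22.99 and 26.3 in KO, and 44.7 and 42.96 in KO + H-151. Both KO libraries were below the other 4, and control and KO + H-151 were nearly equal. The change was -0.77 ± 0.10 in KO (adjusted p = 8.88e-06), 0.81 ± 0.10 with H-151 (adjusted p = 4.49e-06) and 0.03 ± 0.10 between KO + H-151 and control. Adam23, which has no protease activity and binds integrins and LGI proteins, stood at 70.1 and 62.98 in control, 41.3 and 51.1 in KO, and 99.96 and 86.5 in KO + H-151. Its groups did not overlap, with KO lowest and KO + H-151 highest. It changed by -0.52 ± 0.10 in KO and 1.00 ± 0.10 with H-151, and was 0.48 ± 0.10† above control in the treated cells (adjusted p = 0.0522 without control replicate 2).

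Adam8, a protease of leukocytes and activated macrophages, stood at 42.9 and 41.3 in control, 32.5 and 31.0 in KO, and 100.02 and 90.5 in KO + H-151. The KO + H-151 libraries were more than 2-fold above all others, and KO was lowest. It changed by -0.40 ± 0.09 in KO (adjusted p = 0.00193) and 1.55 ± 0.09 with H-151 (adjusted p = 3.40e-10). Adam33, a gene of mesenchymal cells, stood at 15.7 and 13.3 in control, 16.2 and 14.3 in KO, and 28.8 and 32.3 in KO + H-151. Control and KO overlapped, and both treated libraries were higher. Its change with H-151 was 0.96 ± 0.13, and in KO it was 0.07 ± 0.13, with the sign reversed under total-count scaling. Adam9, a widely expressed sheddase, stood at 63.9 and 80.9 in control, 96.1 and 75.6 in KO, and 39.1 and 48.8 in KO + H-151. Control and KO overlapped, and the treated libraries were below all others. Adam9 changed by -0.95 ± 0.13 with H-151 (adjusted p = 1.62e-05) and was -0.71 ± 0.13 from control. Adam15 rose by 0.50 ± 0.10 with H-151, from 97.95 and 89.5 scaled CPM in KO to 116.9 and 151.4. Adam5, Adam11 and Adam22 stayed at or under 2.04 scaled CPM and passed in no comparison.

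Macrophage markers moved with H-151 as well. All 14 tested of 15 rose with H-151, 13 of them by at least 0.87, with a median of 1.15, where 19.4% of all genes rose. Their summed level was 1342 to 1559 in control, 1668 to 1673 in KO and 3424 to 4189 in KO + H-151. No defining marker tested was at 0: Csf1r, the receptor for macrophage growth factor, stood at 35.9 and 33.7 in control, 24.6 and 25.5 in KO, and 76.5 and 72.9 in KO + H-151, and Adgre1, which encodes F4/80, at 9.97 and 7.86 in control, 10.2 and 9.45 in KO, and 30.2 and 26.4 in KO + H-151. In KO against control 4 of the 14 rose and 2 (Csf1r, Cd14) fell, with a median of 0.17. Csf1r changed by -0.46 ± 0.09, beside -0.48 for Mmp12 and -0.40 for Adam8. The 4 that rose went the other way: Ptprc by 0.56, C1qc by 0.56, Fcer1g by 0.33 and Ctss by 0.30. The part of the macrophage markers in the changes of Mmp12, Adam8 and other members was not tested. In bulk RNA, more cells of a type and more RNA per cell cannot be told apart.

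**Figure D4:**
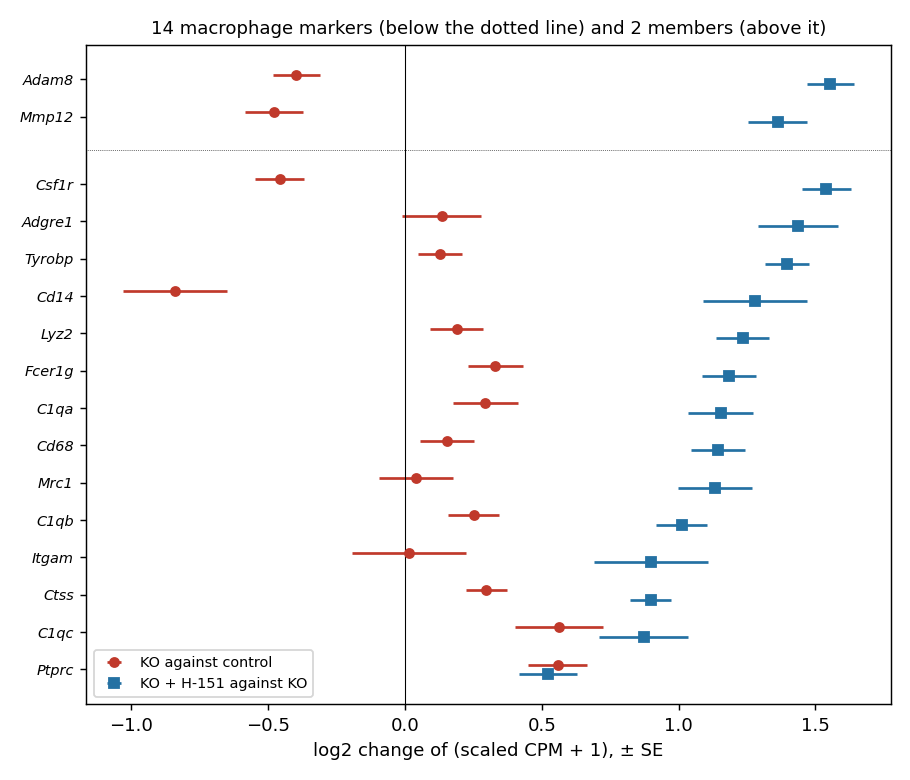
Log2 change of (scaled CPM + 1), ± SE (horizontal axis), of the 14 tested macrophage markers below the dotted line and of Mmp12 and Adam8 above it (vertical axis). Red circles are KO against control and blue squares KO + H-151 against KO. With H-151 the markers lay between 0.52 (Ptprc) and 1.54 (Csf1r), Mmp12 at 1.36 and Adam8 at 1.55.

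Of the ADAMTS genes that cleave proteoglycans such as versican and aggrecan, Adamts5 stood at 417 and 466 in control, 131 and 118 in KO, and 209 and 224 in KO + H-151. Adamts1 stood at 409.7 and 411 in control, 149 and 159 in KO, and 214 and 203 in KO + H-151. In both genes the 3 groups did not overlap, with control highest, KO lowest and KO + H-151 between them. Adamts5 changed by -1.82 ± 0.08 in KO (adjusted p = 7.44e-12), the largest fall among members in that comparison on this scale, and Adamts1 by -1.41 ± 0.07 (adjusted p = 3.63e-11). With H-151 the changes were 0.80 ± 0.08 and 0.44 ± 0.07 against KO (adjusted p = 2.69e-07 and 5.11e-05), and the treated cells were still -1.02 ± 0.08 and -0.97 ± 0.07 from control. These genes also are neighbours in the genome, at 85793827 to 85803113 (Adamts1) and 85856173 to 85901828 (Adamts5) on chromosome 16, GRCm38.

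Adamts15, another aggrecan- and versican-cleaving enzyme, stood at 48.4 and 39.8 in control, 27.2 and 30.7 in KO, and 121 and 103 in KO + H-151. Its groups did not overlap, with KO lowest and KO + H-151 more than 2-fold above control. The change was -0.59 ± 0.11 in KO (adjusted p = 4.41e-04) and 1.92 ± 0.11 with H-151 (adjusted p = 3.62e-10), the largest rise among members on the log2(scaled CPM + 1) scale, on which the low Adamts18 below is compressed. Adamts4 did not pass in KO (0.17 ± 0.09) and changed by -0.35 ± 0.09† with H-151 (adjusted p = 0.0707 without KO replicate 2, and 0.13 under total-count scaling). Adamts9 rose by 0.57 ± 0.20† with H-151 on 29 to 85 reads per library (adjusted p = 0.0311; 0.238 without KO replicate 1 and 0.185 without KO + H-151 replicate 1).

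Of the procollagen N-proteinases, which trim the amino ends of fibrillar procollagens, Adamts2 stood at 445 and 393 in control, 501 and 531 in KO, and 453 and 394 in KO + H-151. Both KO libraries lay above the other 4, and control and KO + H-151 overlapped. Adamts2 rose by 0.30 ± 0.08† in KO and changed by -0.29 ± 0.08† with H-151. In KO the adjusted p was 0.127 without control replicate 2 and 0.122 without KO replicate 2, and with H-151 it was 0.12 without KO replicate 2 and 0.0651 without KO + H-151 replicate 2. Quantile normalization ended both calls (0.218 and 0.689), as did total-count scaling (0.178 and 0.278). Adamts14 had 15 to 17 reads in each control library, 30 in each KO library and 12 and 6 in KO + H-151. It rose by 0.74 ± 0.22† in KO (adjusted p from 0.0518 to 0.086 without any 1 of the control or KO libraries) and changed by -1.19 ± 0.22 with H-151.

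Of the other ADAMTS genes, Adamts6, whose product acts on fibrillin microfibrils and cell junctions, stood at 9.12 and 10.5 in control, 17.5 and 18.4 in KO, and 4.38 and 5.75 in KO + H-151. Its groups did not overlap, with KO highest and KO + H-151 lowest. Adamts6 rose by 0.81 ± 0.16 in KO (adjusted p = 8.45e-04), changed by -1.65 ± 0.16 with H-151 (adjusted p = 3.58e-07) and was -0.84 ± 0.16 from control. Adamts16 fell in KO (-0.38 ± 0.12†, adjusted p from 0.0552 to 0.152 without any 1 of the control or KO libraries). With H-151 Adamts10, which binds fibrillin, rose (0.36 ± 0.11†) and Adamts12, which cuts cartilage oligomeric matrix protein, fell (-0.47 ± 0.13†). Without KO replicates 1 and 2 and KO + H-151 replicate 2 the adjusted p for Adamts10 was 0.118, 0.0502 and 0.125, and for Adamts12 it was 0.0735 without KO replicate 2 and 0.0568 without KO + H-151 replicate 1. Adamts18 had 16 and 1 reads in control, 1 and 2 in KO and 22 and 12 in KO + H-151. Its ratio of KO + H-151 to KO was 8.41 (95% interval 2.65 to 42.8, counting error only), and its rise† (0.87 ± 0.30) had an adjusted p of 0.144 and 0.102 without KO replicates 1 and 2 and 0.169 without KO + H-151 replicate 1. Adamts7 and Adamts17 passed in none of the comparisons.

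ADAMTS-like proteins bind fibrillin microfibrils without cutting them. Adamtsl1 stood at 17.4 and 13.04 in control, 24.6 and 29.1 in KO, and 8.82 and 8.504 in KO + H-151. The 3 groups did not overlap, with KO highest and KO + H-151 lowest. It rose by 0.79 ± 0.15 in KO (adjusted p = 5.48e-04), changed by -1.52 ± 0.15 with H-151 (adjusted p = 3.75e-07) and was -0.73 ± 0.15 from control. Adamtsl3 changed by -0.74 ± 0.17 with H-151 and did not pass in KO (-0.04 ± 0.17). Adamtsl5 stood at 49.8 and 47.9 in control, 55.7 and 60.8 in KO, and 53.8 and 55.9 in KO + H-151. Its rise in KO, 0.25 ± 0.08†, lost the call without any 1 of the control or KO libraries (adjusted p from 0.0522 to 0.234), under 3 other scalings (0.0896 to 0.421) and in DESeq2 (0.0895). Adamtsl2 and Adamtsl4, genes of inherited microfibril disorders, passed in none of the comparisons.

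Of the inhibitors, Timp3, which is bound to the matrix and blocks ADAM17 and the proteoglycan-cleaving ADAMTS enzymes as well as MMPs, stood at 1600.4 and 1563 in control, 1126 and 1159 in KO, and 604 and 570.3 in KO + H-151. The 3 groups did not overlap, in the order control, KO, KO + H-151 from high to low. Timp3 changed by -0.47 ± 0.07 in KO (adjusted p = 3.31e-05), by -0.96 ± 0.07 with H-151 (adjusted p = 5.31e-09) and by -1.43 ± 0.07 from control to KO + H-151. Its exons overlap those of Syn3 on the opposite strand, which is not among the genes used here.

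Timp1, a secreted inhibitor that is inducible in many cells, stood at 646 and 602 in control, 704 and 680.5 in KO, and 414 and 468 in KO + H-151. The KO + H-151 libraries were below all others. It did not pass in KO (0.15 ± 0.07, adjusted p = 0.123), where the sign reversed under quantile normalization and total-count scaling, while leaving out KO + H-151 replicate 1 or 2 brought the adjusted p to 0.0487 or 0.049. With H-151 it changed by -0.65 ± 0.07 (adjusted p = 1.74e-06). Timp2, which binds Mmp14 in the complex that activates proMMP2, stood at 2835 and 2956 in control, 2813 and 2801 in KO, and 3096 and 3054 in KO + H-151. With the deposited scaling it passed in none of the 3 comparisons (-0.04 ± 0.07 in KO and 0.13 ± 0.07 with H-151). It passed under quantile normalization (-0.37, adjusted p = 0.00148, in KO and 0.37, adjusted p = 0.00119, with H-151) and total-count scaling (-0.21, adjusted p = 0.0318, and 0.31, adjusted p = 0.00269). Timp4 had 14 to 19 reads in each control and KO library and 60 and 76 in the KO + H-151 libraries. It rose by 1.14 ± 0.21 with H-151 (adjusted p = 3.07e-04).

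Ratios of enzyme to inhibitor RNA within a library were computed for 7 pairs, chosen with earlier results known, and are given with no test. The ratio of Mmp14 to Timp2 was 0.505 and 0.418 in control, 0.669 and 0.696 in KO and 0.485 and 0.469 in KO + H-151, highest in both KO libraries. The ratio of Adamts5 to Timp3 was 0.261 and 0.298 in control, 0.116 and 0.102 in KO and 0.346 and 0.394 in KO + H-151. It was lowest in KO and highest in the treated cells, although Adamts5 itself was highest in control. The ratio of Adam17 to Timp3 was 0.0572 and 0.0531, then 0.0908 and 0.102, then 0.187 and 0.201 in the same order of groups. The ratio of Adamts1 to Timp3 was 0.256 and 0.263, 0.132 and 0.137, and 0.354 and 0.356, ordered like that of Adamts5. The ratio of Mmp13 to Timp1 was 0.0788 and 0.0812, 0.196 and 0.262, and 0.138 and 0.1096, highest in KO. Not every pair was: Mmp3 to Timp1 was 0.445 and 0.444 in control, 0.5499 and 0.614 in KO and 0.803 and 0.581 in KO + H-151, so that the last 2 groups overlapped. Mmp2 to Timp2 overlapped in the same way, at 0.1995 and 0.179, 0.239 and 0.274, and 0.247 and 0.196. These are ratios of RNA levels and not of proteins.

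The proteases that activate MMPs were read from a list of 18 genes of the plasminogen system, proprotein convertases and MMP regulators, of which 14 were tested. In KO 4 rose and 3 fell, where 18.2% and 14.2% of all genes did, with a median of -0.02 beside -0.01 in all genes. Plat, which encodes tissue plasminogen activator, stood at 36.8 and 38.6 in control, 108 and 104 in KO (1.47 ± 0.08). The convertase gene Pcsk6 changed by -0.80 ± 0.08, and Anxa2, a surface receptor for plasminogen, by -0.03 ± 0.07 without passing. With H-151 1 (Plau) rose and 6 fell, where 19.4% and 21.4% of all genes did, with a median of -0.30 beside 0.02 in all genes. Plat changed by -1.85 ± 0.08, Pcsk5 by -1.33 ± 0.09, the protease inhibitor Serpine2 by -1.23 ± 0.09, and Anxa2 by -0.15 ± 0.07 without passing. Against control, 1 was higher and 8 were lower in KO + H-151, beside 11.5% and 11.4% of all genes.

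Of 14 tested genes for other matrix and collagen proteases, 6 rose and 1 (Prss23) fell in KO (18.2% and 14.2% of all genes), with a median of 0.17. Fap, the fibroblast activation protease, stood at 6.55 and 5.76 in control, 15.5 and 18.99 in KO (1.35 ± 0.16). The collagen-degrading cathepsin Ctsk rose by 0.64 ± 0.08, Ctsb rose by 0.28 ± 0.07 and Prss23 changed by -0.86 ± 0.09. With H-151 4 of the 14 rose and 4 (Bmp1, Tll1, Pcolce2, Fap) fell, where 19.4% and 21.4% of all genes did, with a median of -0.03. Ctss, which is also among the macrophage markers, rose by 0.90 ± 0.08, Htra3 by 0.86 ± 0.10 and Ctsb by 0.60 ± 0.07. Fap changed by -0.65 ± 0.16.

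Of 7 tested genes for partners that carry or activate Adam10 and Adam17, 3 rose and 4 did not pass in KO. Their median was 0.16, and 18.2% of all genes rose. Frmd8, which stabilises the complex of Adam17 with its carrier, stood at 60.7 and 59.4 in control, 86.5 and 82.4 in KO (0.48 ± 0.08), and the carrier gene Rhbdf2 rose by 0.86 ± 0.18. The tetraspanin Tspan15, a partner of Adam10, rose by 0.92 ± 0.21, and Tspan17 changed by 0.16 ± 0.08 without passing. With H-151 3 rose and 3 fell (19.4% and 21.4% of all genes), with a median of -0.39: Frmd8 changed by -0.56 ± 0.08, Tspan15 by -1.40 ± 0.21, Tspan5 by 0.43 ± 0.09 and Tspan17 by 0.29 ± 0.08. Of 21 tested genes for proteins that Adam10 or Adam17 release from the surface, 12 rose and 3 (Hbegf, Ereg, Jag1) fell in KO. Their median was 0.53, and of all genes 18.2% rose and 14.2% fell. The chemokine gene Cx3cl1 stood at 20.6 and 23.9 in control, 94.9 and 113 in KO (2.17 ± 0.11), and the adhesion molecules Vcam1 and Icam1 rose by 1.23 ± 0.06 and 1.37 ± 0.08. The amyloid precursor App changed by 0.07 ± 0.07 without passing. With H-151 1 (Tgfa) rose and 13 fell (19.4% and 21.4% of all genes), with a median of -0.35: Vcam1 changed by -1.43 ± 0.06, Cx3cl1 by -2.19 ± 0.11, Icam1 by -1.43 ± 0.08 and App by -0.20 ± 0.07.

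Of 14 tested genes for substrates of ADAMTS enzymes, 7 rose and 1 (Thbs1) fell in KO. Their median was 0.23, and of all genes 18.2% rose and 14.2% fell. The cartilage proteoglycan Acan, a substrate of Adamts5, stood at 12.8 and 15.1 in control, 26.6 and 26.7 in KO (0.89 ± 0.16), Col1a1 rose by 0.35 ± 0.09 and Col1a2 by 0.30 ± 0.10, and Thbs1 changed by -0.97 ± 0.09. With H-151 5 rose and 8 fell (19.4% and 21.4% of all genes), with a median of -0.46. Acan changed by -2.29 ± 0.16, versican (Vcan) by -0.94 ± 0.08, Col1a1 by -0.92 ± 0.09 and Col1a2 by -0.66 ± 0.10. Of 11 tested genes of the microfibrils that ADAMTS-like proteins bind, 1 (Ltbp2, -0.37 ± 0.07) fell and 10 did not pass in KO, where 14.2% of all genes fell. With H-151 1 (Mfap2) rose and 6 fell (19.4% and 21.4% of all genes), with a median of -0.27: Fbln5 changed by -0.73 ± 0.06, Fbn1 by -0.71 ± 0.07 and Ltbp1 by -0.52 ± 0.09, and Mfap5 by -0.14 ± 0.06 without passing. Against control, 7 of the 11 were lower in KO + H-151 and 4 did not pass, where 11.4% of all genes were lower.

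In total 37 of the 49 members (75.5%) passed in at least 1 of the 3 comparisons, as did 53.1% of all genes tested. The 12 that passed in none (Adam5, Adam11, Adam22, Adamts7, Adamts17, Adamtsl2, Adamtsl4, Mmp16, Mmp19, Mmp23, Mmp28 and Timp2) had changes between -0.53 and 0.57.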

How the data were processed

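RNA of 6 libraries was analysed from 1 deposited table. STAR 2.5.3a, featureCounts, edgeR and the mm10 build are named, with no role or order, per the submitters' processing notes. The annotation, strand setting and low-count filter are not given in the sources used here. The values deposited by the authors are a scaled signal named CPM whose column totals differ, and the scaling is not described in the sources used here. In each column 100% of values were whole multiples of 1 read within 0.0006, which recovered the reads. The plan written for CPM was kept, since its log2 test applies to this unit too. Genes that reached 1 scaled CPM in 2 or more libraries (13648 of 13706) were fitted as log2(value + 1) with limma 3.58.1 in R 4.3.3, 1 mean per group over all 6 libraries, with a trended prior variance (3 residual degrees of freedom, 15.7 after moderation), and p-values were adjusted over all genes with Benjamini-Hochberg. Alternatives included DESeq2 1.42.0 and edgeR 4.0.16 on the recovered reads, and edgeR called 2423 genes higher and 1851 lower in KO, 2614 and 2899 with H-151, and 1626 and 1585 in KO + H-151 against control. Where a library was left out, the lone library of its group was assumed to vary like the others. Scripts were tested on simulated data. Members and lists were chosen with earlier results of these data known. Levels are given for the 15 members with the largest change in each of the first 2 comparisons (8 in the last) and a mean of at least 5 in 1 of the groups compared, the highest member of each family, all TIMPs, and Mmp2, Mmp3, Mmp13, Mmp14, Adam10, Adam17, Adamts1 and Adamts5. From each list the text names 3 genes by p-value and 1 by mean level, except that some items are not reported here. Other members and list genes described were chosen after their values were seen. Positions are from GENCODE M21 (GRCm38). Protein sequences were not used here. No table column was without a sample.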

Additional observations from a re-analysis of the deposited data

How the results depend on the processing

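Of the called member changes, 15 of 24 in KO against control, 21 of 32 in KO + H-151 against KO and 16 of 22 in KO + H-151 against control kept their call in every alternative that tested them, the 2-fold minimum aside. No called change reversed. Without a trend, KO + H-151 against control also lost Adam15 (adjusted p = 0.0609) and Adam9 (0.0503). Of the uncalled changes followed, 2 in KO, 3 with H-151 and 2 against control passed under at least 1 alternative. Low reads limit the precision of members such as Adamts14, Adamts18, Adamts9 and Mmp15.

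Members higher in KO numbered 8 under quantile normalization, 8 under total-count scaling, 9 without a trend and 2 with a 2-fold minimum. Leaving out 1 library gave 7 to 15 higher and 9 to 11 lower. With the 2-fold minimum 3 members were lower in KO, 5 higher and 5 lower with H-151, and 5 higher and 2 lower in KO + H-151 than in control. Without a trend 7 were higher in KO + H-151 than in control. Leaving out 1 library gave 12 to 16 higher and 11 to 16 lower with H-151, and 8 to 12 and 10 to 11 against control.

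Of all genes, 779 were higher and 207 lower in KO with the 2-fold minimum, 429 and 867 with H-151, and 253 and 168 in KO + H-151 against control. Genes lower in KO numbered 1266 with a mean of 10 or more, 2987 under quantile normalization, 4054 under total-count scaling and 1217 with DESeq2. Genes higher with H-151 numbered 1676 with a mean of 10 or more and 4770 under total-count scaling, which gave 1930 lower. Genes lower in KO + H-151 than control numbered 937 without a trend. Leaving out 1 library gave 1782 to 2718 genes higher and 1165 to 2186 lower in KO, 1776 to 2536 and 2200 to 2840 with H-151, and 951 to 1373 and 924 to 1499 in KO + H-151 against control. The causes were not tested, except that a library left out or a mean filter leaves fewer data.

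Changes not called in the first place that reversed were, in KO, Adam33 (-0.087 under total-count scaling, and -0.045 to 0.179 with 1 library left out), Timp1 (-0.037 under quantile normalization, -0.013 under total-count scaling) and Timp4 (-0.0048 under median scaling, -0.042 under total-count scaling, -0.067 to 0.171 with 1 library left out). With H-151 they were Adam10 (0.117 and 0.103 under quantile normalization and total-count scaling), Adamtsl5 (0.065 and 0.090), Mmp2 (0.171 and 0.090, and -0.265 to 0.089 with 1 library left out) and Adam17 (-0.050 to 0.152 with 1 library left out). Against control they were Adamts2 (-0.015 under median scaling, and -0.084 to 0.116 with 1 library left out), Mmp3 (-0.027 to 0.264 with 1 library left out) and Timp2 (-0.0013 under quantile normalization).

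The labels number the libraries 1 and 2 in each group. Same-numbered deviations correlated only weakly, at -0.068 (control and KO), 0.154 (control and KO + H-151) and -0.128 (KO and KO + H-151). With 2 libraries per group, these values cannot show whether same-numbered libraries shared an animal or culture. A replicate block left the member counts at 14 and 10 in KO, 16 and 16 with H-151, and 11 and 11 against control.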
